A study of Mus musculus with 2 samples.

Results

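The immediate early AP-1 and EGR genes are 10 of the 31053 genes counted in CD45+ cells of the mouse cochlea: Fos, Fosb, Jun, Junb, Jund, Egr1, Atf3, Ier2, Zfp36 and Btg2. They were listed by name, chosen by their lower UMI levels on days 7 and 14 after noise than in sham in these same data, so that lower level is a description here and not a result. The cells came from 4 pools of 6 mice each, which were sham treated (also called untreated in the labels) or taken 3, 7 or 14 days after noise exposure. No genotype, strain, age or noise dose is given in the sources used here. Each pool of cochleae was digested in Accutase for 20 min on its own, labelled with its own hashtag antibody, and sorted for living CD45+ cells. The question was whether the lower level was common to all blood cell lineages, since one digestion, stain and sort served all lineages of a pool. With 1 pool per condition the noise, the mice and the handling of a pool cannot be told apart, and no p-value can be given. The 95% intervals given with the ratios take in counting error and nothing else.

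Immediate early genes are transcribed within minutes of a stimulus, by transcription factors that the cell already holds, and most of their RNAs are short lived. Fos and FosB proteins pair with Jun, JunB or JunD to form the dimeric factor AP-1, and Atf3 encodes a related leucine zipper protein. Egr1 encodes a zinc finger factor, Zfp36 a protein (tristetraprolin) that marks AU-rich RNAs for decay, Btg2 an antiproliferative protein that binds a deadenylase complex, and Ier2 a nuclear protein. In blood cells these genes are known to respond to antigen and cytokine receptors and to adhesion, and enzymatic dissociation of tissue is known to induce them as well.

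The RefSeq promoter table (GRCm38.p6) was matched for 8 of the 10 genes, all but Ier2 and Egr1. The 4 shown here are among those that hold letters of sequence elements for which this gene class is known. Each runs from 250 bases before to 50 bases after the RefSeq start. Capitals mark the letters TGACG or TGACGTCA of the cyclic AMP response element, read on either strand, the serum response element called the CArG box, and the TATA box letters TATAAA.
Fos, chr12:85473640-85473939, plus strand: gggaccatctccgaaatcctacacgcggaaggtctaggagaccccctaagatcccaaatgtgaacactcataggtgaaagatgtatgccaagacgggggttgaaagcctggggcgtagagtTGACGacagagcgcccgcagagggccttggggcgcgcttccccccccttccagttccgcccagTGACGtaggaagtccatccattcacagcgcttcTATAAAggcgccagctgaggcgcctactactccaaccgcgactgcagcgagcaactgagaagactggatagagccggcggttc
Junb, chr8:84978699-84978998, minus strand: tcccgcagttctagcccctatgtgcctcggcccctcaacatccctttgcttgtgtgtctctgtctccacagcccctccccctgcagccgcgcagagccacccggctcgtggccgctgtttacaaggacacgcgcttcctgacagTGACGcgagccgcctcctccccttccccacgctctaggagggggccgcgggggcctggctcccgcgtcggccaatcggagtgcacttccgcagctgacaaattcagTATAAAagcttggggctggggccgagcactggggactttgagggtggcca
Zfp36, chr7:28379179-28379478, minus strand: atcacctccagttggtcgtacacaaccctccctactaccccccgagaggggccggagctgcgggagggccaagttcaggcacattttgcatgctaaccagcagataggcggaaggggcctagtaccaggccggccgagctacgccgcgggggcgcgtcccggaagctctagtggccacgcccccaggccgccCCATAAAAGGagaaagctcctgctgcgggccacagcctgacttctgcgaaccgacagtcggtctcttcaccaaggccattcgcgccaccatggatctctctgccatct
Btg2, chr1:134079106-134079405, minus strand: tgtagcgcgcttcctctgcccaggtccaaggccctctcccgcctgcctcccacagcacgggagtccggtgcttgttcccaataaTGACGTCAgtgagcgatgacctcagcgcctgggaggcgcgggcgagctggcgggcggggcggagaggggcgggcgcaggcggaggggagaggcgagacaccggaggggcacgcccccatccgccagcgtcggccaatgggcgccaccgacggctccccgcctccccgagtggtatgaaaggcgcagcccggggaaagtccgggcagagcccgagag
TGACG stood in 5 of the 8 promoters (Fos, Fosb, Junb, Atf3 and Btg2), against 20.8% of the 32851 promoters in the table. Fos held it at positions -129 and -66 from the RefSeq start. TATAAA stood in 2 of the 8, in Fos at -33 and in Junb at position 1, on the RefSeq start itself, against 13.6% of all promoters. The whole element TGACGTCA, which contains TGACG on both strands, was found in Btg2 at -166 and in 1.79% of all promoters. The CArG box was found in Zfp36 at -58 and in 1.63% of all promoters. The AP-1 site TGAGTCA or TGACTCA was in none of the 8 windows and in 5.20% of all, and the EGR site GCGTGGGCG was in none and in 0.612% of all. The windows of Jun and Jund held none of these patterns. All finds are matches of letters and were not tested as sites. The window of Jund (chr8:70697489-70697788) lies upstream of the GENCODE gene start given below, and those of Atf3 and Zfp36 lie within the GENCODE genes, so a missing match says nothing of another start.

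All 4 pools were sequenced in 1 droplet library, whose gene counts and hashtag counts share the same 1556 barcodes. After the hashtag rule and the cell filter 341 sham, 551 day 3, 216 day 7 and 177 day 14 cells remained. Of these, 284, 502, 192 and 161, with 2664502, 5955166, 2208640 and 1705920 gene UMIs in sum, were placed in 8 lineages by fixed marker genes, and the lineage names rest on those RNAs alone. The granule genes of immature neutrophils summed to 105464 counts per 1000000 (CPM) in the immature and 7720 CPM in the mature neutrophil gate, while the mature neutrophil list, which holds S100a8 and S100a9, summed to 388343 and 342243 CPM there. Outside neutrophils and progenitors, S100a8 and S100a9 stood at 0.181% to 0.506% of their neutrophil level. Neutrophil RNA at that level, averaged over mature and immature cells of all 4 pools, would carry up to 22.5 CPM of the 10 genes. That is up to 0.421% of what was measured in the same cells. RNA of mature neutrophils alone, which held more of the 10 genes, would carry more.

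In the sham pool the 10 genes differed between lineages gene by gene. Fos stood at 2083 CPM in mature neutrophils, 1858 CPM in mononuclear phagocytes (macrophages, monocytes and dendritic cells) and 1712 CPM in progenitors or basophils, whose intervals overlapped in that order. It stood at 273 CPM in immature neutrophils and at 84.6 CPM in B cell precursors, both apart from their neighbours. Jun had another order, with 1043 CPM in B cell precursors, 955 CPM in progenitors or basophils, 104 CPM in mature neutrophils and 17.3 CPM in immature neutrophils. B cell precursors thus stood last for Fos and, level with progenitors or basophils within counting error, first for Jun. They were also first for Jund (3256 CPM, against 2230 CPM in B cells). Junb stood at 4066, 3928 and 3760 CPM in mature neutrophils, NK cells and B cells, which did not differ beyond counting error, and at 2664 CPM in T cells.

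Egr1 stood at 630 CPM in mature neutrophils, 591 CPM in progenitors or basophils and 446 CPM in B cells, each overlapping the next, and at 49.5 CPM in T cells. Atf3 was found almost wholly in 2 gates, at 293 CPM in mature neutrophils and 285 CPM in mononuclear phagocytes, against at most 20.6 CPM in the other 6. Zfp36 lay between 308 and 555 CPM in 7 lineages and at 73.1 CPM in immature neutrophils. Btg2 led in mature neutrophils with 1460 CPM, and Ier2 in NK cells with 1136 CPM, overlapping mature neutrophils at 1016 CPM. Immature neutrophils were last for 8 of the 10 genes, and the exceptions were Fos, which was lowest in B cell precursors, and Atf3, which had 0 UMIs in NK cells.

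**Figure D1:**
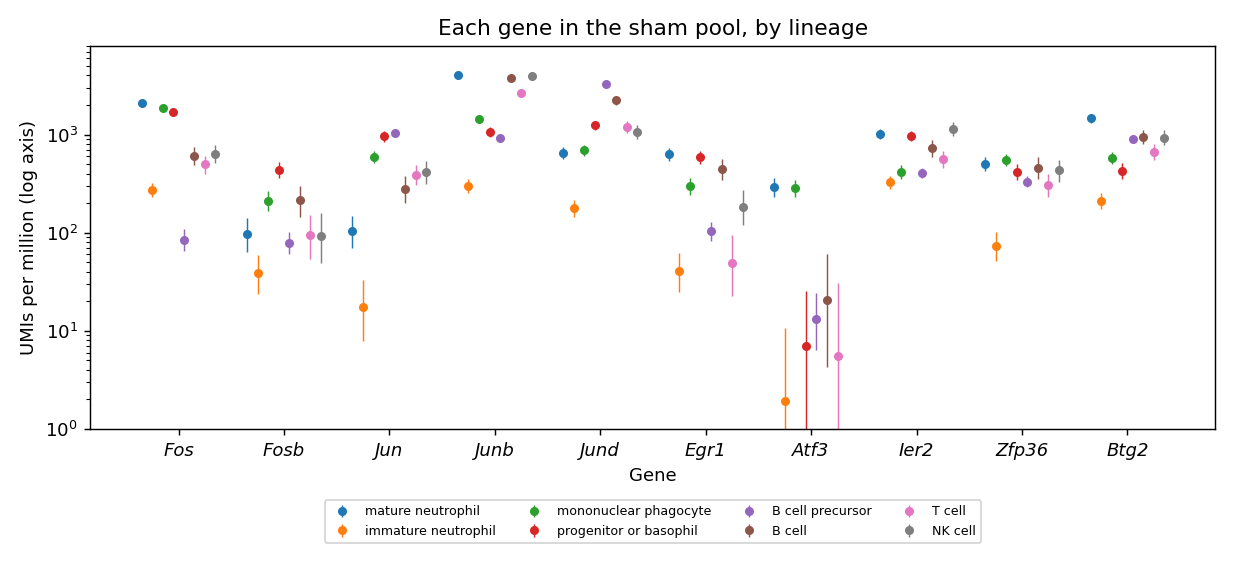
Counts per 1000000 (log axis) of each of the 10 genes in the sham pool, with 1 colour per lineage and bars for the 95% Poisson interval, which is cut at the lower edge for Atf3. Fos is lowest in B cell precursors at 84.6 CPM while Jun is highest there at 1043 CPM, and Atf3 has no point for NK cells, where it had 0 UMIs.

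The lower level on day 7 was not common to all 8 lineages. Summed over the 10 genes, mature neutrophils stood at 10905, 13064, 5796 and 7199 CPM in the sham, day 3, day 7 and day 14 pools, so that day 7 was at 0.531 of sham (0.501 to 0.564). B cell precursors stood at 7126, 6470, 3801 and 7439 CPM, with day 7 at 0.533 of sham (0.507 to 0.561). B cells stood at 9694, 7748, 5350 and 9391 CPM, with day 7 at 0.552 (0.488 to 0.623). In these 3 lineages the day 7 pool was the lowest of the 4 by a similar ratio. Progenitors or basophils had 7803, 6056, 3498 and 10247 CPM and a day 7 ratio of 0.448 (0.421 to 0.477). Their day 14 value rests on 5 cells, 1 of which held 43.8% of these UMIs. NK cells had 8815, 8226, 6211 and 6631 CPM and a ratio of 0.705 (0.629 to 0.788), and immature neutrophils 1457, 1867, 1202 and 969 CPM and a ratio of 0.825 (0.722 to 0.941). The value for immature neutrophils depended on the processing: on the log2 scale it was -0.28, but -1.16 with each cell thinned to 2000 UMIs and -0.02 under a stricter hashtag rule.

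T cells and mononuclear phagocytes did not share this. T cells stood at 6424, 5897, 6523 and 5331 CPM, and their day 7 ratio was 1.02 (0.939 to 1.10). Mononuclear phagocytes stood at 6917, 7569, 14359 and 8255 CPM, and their day 7 ratio was 2.08 (1.96 to 2.19). Thus 6 lineages were lower, 1 was level within counting error and 1 was higher in a pool whose cells shared 1 digestion. The day 7 values rest on 55 mature neutrophils, 46 B cell precursors and 10 to 21 cells in each of the other 6 lineages, and cells of 1 pool are not replicates. On day 14 mononuclear phagocytes, progenitors or basophils, B cells and NK cells held 9, 5, 7 and 6 cells. Their day 14 levels, here and gene by gene below, rest on too few cells to be compared.

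**Figure D2:**
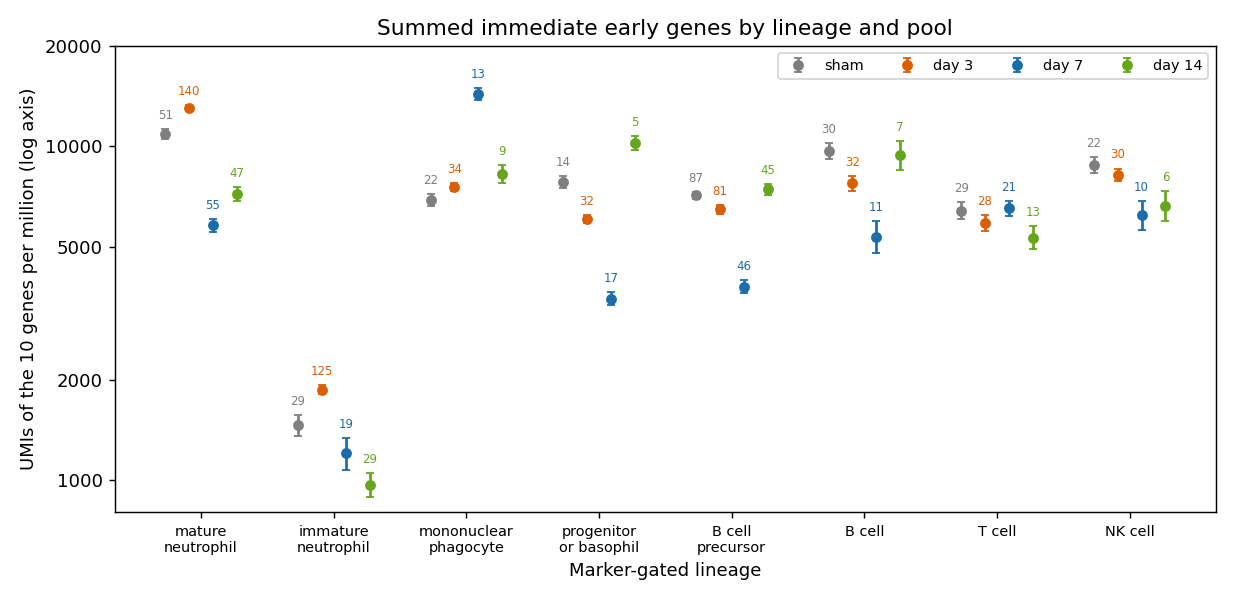
UMIs of the 10 genes per 1000000 UMIs (log axis) in each lineage and pool, with 95% Poisson intervals and the number of cells above each point. On day 7 mononuclear phagocytes stand at 14359 CPM, above their 6917 CPM in sham, while mature neutrophils stand at 5796 CPM, below their 10905 CPM in sham.

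Gene by gene, a gene and lineage pair was read where both pools held at least 10 cells and together at least 20 UMIs, and it was called lower or higher at a ratio of 1.5. On day 7, 43 of 72 such pairs were lower and 10 were higher than in sham, where over all genes 17.6% of 26595 pairs were lower and 13.8% higher. In mature neutrophils 7 of 10 genes were lower and 0 higher, where 13.5% of all measured genes were lower and 9.27% higher. In immature neutrophils 4 of 8 were lower (21.2% of all genes). In progenitors or basophils 8 of 9 were lower (20.1% of all genes), in B cell precursors 9 of 9 (12.7%), in B cells 7 of 9 (18%) and in NK cells 6 of 8 (17.4%). In T cells 2 of 9 were lower and 1 higher (12.7% and 19.6% of all genes). In mononuclear phagocytes 0 of 10 were lower and 9 higher, where 26.1% of all measured genes were lower and 16.2% higher. Since the genes were listed for their lower level, these counts describe the list.

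On day 14 only 4 lineages held 10 cells in both pools, and these again differed. Mature neutrophils were at 0.660 of sham (0.623 to 0.700), immature neutrophils at 0.665 (0.595 to 0.743) and T cells at 0.830 (0.751 to 0.916). B cell precursors were at 1.04 of sham (0.997 to 1.09). Of 36 gene and lineage pairs 15 were lower and 1 higher, where 12.3% of 14553 pairs over all genes were lower and 13.6% higher. By lineage, 5 of 10 genes were lower in mature neutrophils (16.4% of all genes), 4 of 9 in immature neutrophils (9.57%), 2 of 9 in B cell precursors (11.7%) and 4 of 8 in T cells (14.3%). B cell precursors were thus below sham on day 7 and not on day 14, and T cells on day 14 and not on day 7. On day 3 both stood slightly below sham, at 0.908 (0.873 to 0.944) in B cell precursors and 0.918 (0.847 to 0.995) in T cells. Both days share the sham pool, so they are not independent. The T cell gate joins a T cell list and a gamma delta T cell list. On day 14 the cells led by the T cell list were at 0.780 of sham (0.696 to 0.873), on 10 cells against 25. Those led by the gamma delta list were at 1.41 (1.11 to 1.80), on 3 cells against 4.

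**Figure D3:**
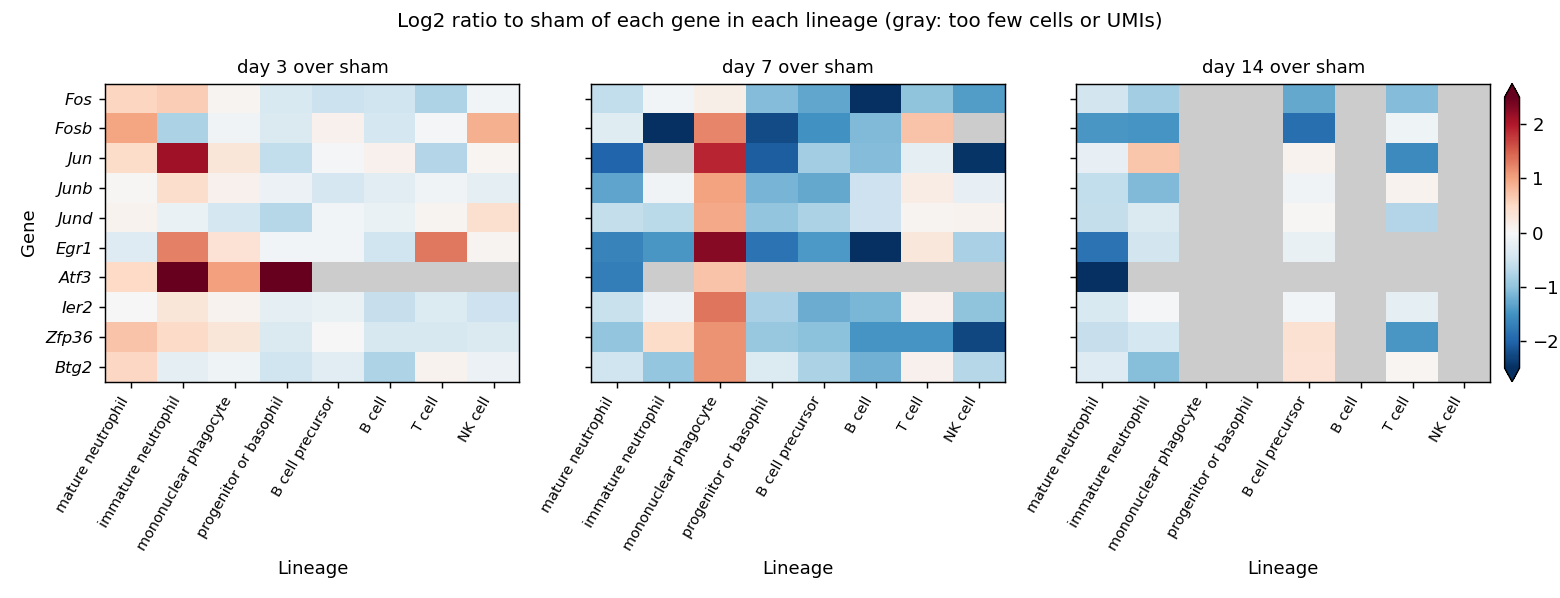
Log2 ratio to sham of each gene (rows) in each lineage (columns) on day 3, day 7 and day 14, with red above and blue below sham, and gray where a pair had fewer than 10 cells in a pool or fewer than 20 UMIs. On day 7 the mononuclear phagocyte column is red, with Egr1 at 2.27, and the B cell precursor column is blue in its 9 measured genes.

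Of the Fos family, Fos itself (GENCODE vM21 on GRCm38, chr12:85473890-85477273, plus strand) stood at 2083, 3022, 1363 and 1512 CPM in mature neutrophils of the sham, day 3, day 7 and day 14 pools. Day 3 was the highest of the 4 and day 7 the lowest, at 0.654 of sham (0.576 to 0.743). In mononuclear phagocytes Fos stood at 1858, 1951, 2043 and 1472 CPM, and its day 7 ratio of 1.10 (0.966 to 1.25) was the only one of the 10 genes in that lineage under 1.5. In T cells, whose summed level was at 1.02, Fos was nevertheless lower, with 495, 292, 246 and 234 CPM and a day 7 ratio of 0.497 (0.347 to 0.705). In B cells Fos had 89, 77, 1 and 28 UMIs in the 4 pools, which gives a day 7 ratio of 0.0271 (0.000679 to 0.155) on 11 cells. On day 7 Fos was thus lower in 6 of 8 lineages, all but immature neutrophils (0.947, 0.701 to 1.27) and mononuclear phagocytes.

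Fosb (chr7:19302696-19310051, minus strand) stood at 212, 199, 491 and 72.4 CPM in mononuclear phagocytes, with a day 7 ratio of 2.32 (1.69 to 3.19). In progenitors or basophils it stood at 435, 338, 92.5 and 757 CPM and its day 7 ratio was 0.213 (0.150 to 0.298). In immature neutrophils it had 20, 48, 1 and 8 UMIs, which gives a day 7 ratio of 0.0961 (0.00232 to 0.601). A single cell held 36.0% of the day 7 Fosb UMIs of mononuclear phagocytes and 43.1% of the sham UMIs of progenitors or basophils, so these ratios rest on few cells.

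Of the Jun family, Jun (chr4:95049034-95052222, minus strand) was high on day 7 in 1 lineage and low in 5. In mononuclear phagocytes it stood at 592, 730, 2220 and 467 CPM, a day 7 ratio of 3.75 (3.17 to 4.45). In progenitors or basophils it stood at 955, 624, 230.4 and 713.5 CPM, a ratio of 0.241 (0.193 to 0.300), and in B cell precursors at 1043, 1020, 569 and 1115 CPM, a ratio of 0.545 (0.478 to 0.621). The B cell precursor value was low on day 7 alone, and day 14 was at 1.07 of sham (0.947 to 1.21). In T cells Jun was at 0.855 of sham on day 7 (0.608 to 1.20) and 0.333 on day 14 (0.177 to 0.586). In NK cells it had 5 UMIs on day 7 against 58 in sham, a ratio of 0.182 (0.0569 to 0.449).

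Junb (chr8:84974484-84978718, minus strand), the gene with the most UMIs in T cells, NK cells and mature neutrophils, carried much of their summed level. In mature neutrophils it stood at 4066, 4166, 1631 and 2649 CPM, so that day 7 was at 0.401 of sham (0.360 to 0.446) and day 14 at 0.652 (0.592 to 0.717). In T cells it stood at 2664, 2511, 3041 and 2817 CPM and in NK cells at 3928, 3383, 3397 and 3515 CPM, with day 7 ratios of 1.14 (1.01 to 1.29) and 0.865 (0.738 to 1.01). Junb was thus lowest on day 7 in mature neutrophils and near its sham level in T and NK cells. With Junb left out of the sum, the log2 ratio of day 7 to sham was -0.11 in T cells and -0.80 in NK cells, against 0.02 and -0.51 with it. Jund (chr8:70698949-70700616, plus strand) stood at 3256, 3098, 1894 and 3344 CPM in B cell precursors, a day 7 ratio of 0.582 (0.541 to 0.625), and at 1189, 1253, 1239.6 and 719.5 CPM in T cells, where day 14 was at 0.605 (0.464 to 0.783). In NK cells Jund was at 1.07 of sham on day 7 (0.799 to 1.42). Of 8 lineages Jund was called lower on day 7 in 4 and higher in 1, where 17.6% and 13.8% of pairs over all genes were.

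Egr1 had the highest day 7 ratio of the 10 genes in mononuclear phagocytes, where it stood at 299, 383, 1436 and 587 CPM, a ratio of 4.81 (3.83 to 6.08). A single sham cell held 63.6% of its 107 sham UMIs. In mature neutrophils Egr1 stood at 630, 505, 199 and 175 CPM, with day 7 at 0.316 of sham (0.232 to 0.425) and day 14 at 0.278 (0.196 to 0.388). In B cells it had 65, 56, 0 and 3 UMIs in the 4 pools, and the count of 0 on day 7 stands under a floor of 3 UMIs, or 49.7 CPM, and has a 95% interval up to 61.1 CPM, against 446 CPM in sham. Neutrophils and B cells were therefore low where mononuclear phagocytes were high. Atf3 (chr1:191170296-191218039, minus strand) could be read on day 7 in 2 lineages, standing at 293, 414, 88.1 and 31.2 CPM in mature neutrophils and at 285, 580, 464 and 113 CPM in mononuclear phagocytes. Its day 7 ratio was 0.300 in mature neutrophils (0.187 to 0.469) and 1.63 in mononuclear phagocytes (1.21 to 2.20), and its day 14 ratio in mature neutrophils was 0.106 (0.0444 to 0.219).

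Zfp36 (chr7:28376784-28380253, minus strand) was low in T cells, where it stood at 308, 234, 111 and 113 CPM. Its day 7 ratio there was 0.361 (0.214 to 0.593), on 24 UMIs against 56. Zfp36 and Fos were the only 2 of the 9 measured genes called lower in T cells on day 7, and Fosb, at 1.64 (0.886 to 3.13), was the only one called higher, with an interval that includes 1. In mononuclear phagocytes Zfp36 stood at 555, 685, 1204 and 611 CPM, a day 7 ratio of 2.17 (1.78 to 2.64). Btg2 (chr1:134075170-134079120, minus strand) stood at 894, 732, 513 and 1142 CPM in B cell precursors, so that day 7 was at 0.574 (0.499 to 0.659) and day 14 at 1.28 (1.13 to 1.44). In T cells Btg2 was flat, with 666, 713, 715 and 693.5 CPM. Ier2 (chr8:84661331-84662852, minus strand) stood at 409, 366, 173 and 388 CPM in B cell precursors, a day 7 ratio of 0.423 (0.334 to 0.532), and at 416, 441, 1055 and 869 CPM in mononuclear phagocytes, a ratio of 2.54 (2.04 to 3.16).

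The cells behind these sums varied widely. Per cell, the median of the 10 genes per 10000 UMIs was 81.7, 128, 43.2 and 70.0 in mature neutrophils of the sham, day 3, day 7 and day 14 pools, and the quartiles were 26.0 and 83.2 on day 7 and 40.4 and 175 in sham. In mononuclear phagocytes the medians were 49.3, 65.2, 122 and 56.7, with quartiles of 55.8 and 212 on day 7 and 30.8 and 82.4 in sham. In progenitors or basophils the medians were 80.6, 52.2, 10.5 and 90.6, and the day 7 cells lay in a low and a high part, with quartiles of 4.29 and 82.6. In T cells the medians were 56.6, 65.2, 58.4 and 57.3. The ranges of single cells overlapped between pools in each of these lineages. Median UMIs per cell in mature neutrophils were 4433, 5292, 5298 and 5354, and in mononuclear phagocytes 16086, 17697, 13185 and 14121.

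**Figure D4:**
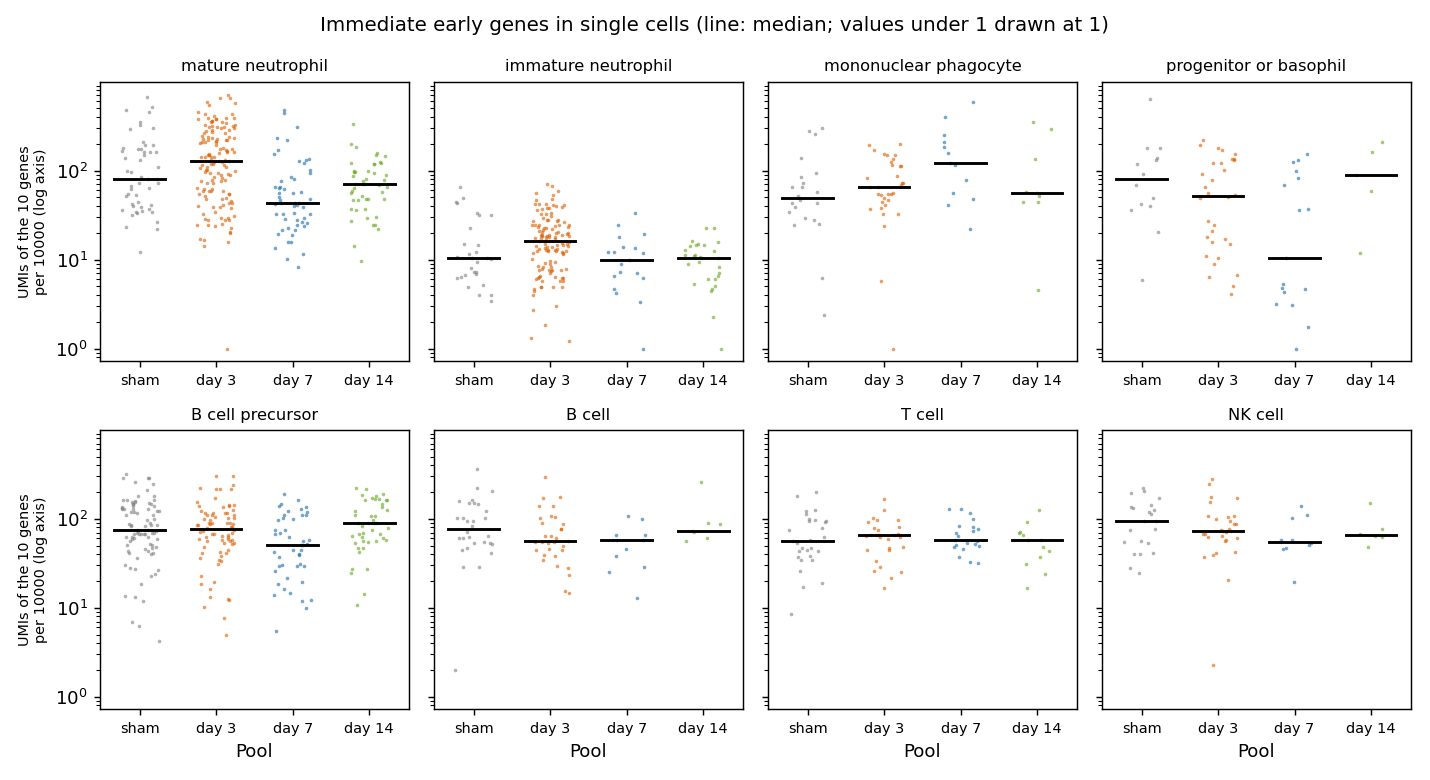
UMIs of the 10 genes per 10000 UMIs in single cells (log axis, 1 point per cell, 1 panel per lineage), with the median of each pool as a line. The day 7 median is 43.2 in mature neutrophils, against 81.7 in sham, and 122 in mononuclear phagocytes, against 49.3 in sham.

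With each cell thinned to 2000 UMIs, Egr1 was found in 43.8%, 47.4%, 17% and 27.5% of mature neutrophils of the 4 pools in time order, and in 54.9%, 62.1%, 27.3% and 27.7% before thinning. In mononuclear phagocytes Jun was found in 27.3%, 50.0%, 69.2% and 44.4% of thinned cells and in 63.6%, 88.2%, 76.9% and 55.6% of cells before thinning, so that its share before thinning had another order. For comparison, Jun was found in 0%, 9.24%, 5.56% and 0% of thinned immature neutrophils (29, 119, 18 and 28 cells), where 0 of 29 allows up to 11.9% by the exact binomial interval. Within mature neutrophils the genes went together from cell to cell: the median Spearman correlation over pairs of genes in thinned cells was 0.41, 0.34, 0.32 and 0.23 in the 4 pools. These medians rest on 8, 10, 6 and 7 genes, so the 4 values are not like for like. The median was 0.09 in sham immature neutrophils, on 4 genes, and 0.36 in sham mononuclear phagocytes, on 6 genes. In the sham pool it was 0.33 in B cells, 0.30 in B cell precursors, 0.29 in NK cells and 0.23 in T cells. All pairs share a cell's depth and library, and these values are descriptions.

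The make-up of 4 lineages moved with the values. Cycling cells, called from 5 cell cycle genes, made up 24.1%, 21.0%, 41.3% and 20.0% of B cell precursors in the sham, day 3, day 7 and day 14 pools, and they held fewer UMIs of the 10 genes per 1000000 (3499 CPM in cycling and 10630 CPM in non-cycling sham cells). Within cycling B cell precursors day 7 was at 0.680 of sham (0.626 to 0.738), and within non-cycling ones at 0.811 (0.758 to 0.866), against 0.533 without the split. In progenitors or basophils 12 of 17 day 7 cells were cycling against 5 of 14 in sham. There the cycling cells stood at 1799 CPM on day 7 against 7034 CPM in sham, a ratio of 0.256 (0.233 to 0.281), and the 5 non-cycling day 7 cells at 10806 CPM against 8629 CPM, a ratio of 1.25 (1.15 to 1.36). The 2 cell types of this gate shifted as well, with 15 progenitors and 2 basophils or mast cells on day 7, against 8 and 6 in sham. The progenitors stood at 2727 CPM on day 7 against 6478 CPM in sham, a ratio of 0.421 (0.391 to 0.454), and the basophils or mast cells at 14317 CPM against 12585 CPM, a ratio of 1.14 (1.01 to 1.27). The lower level of this gate on day 7 was thus found in its cycling cells by one split and in its progenitors by the other. A single cell held 27.8% of the UMIs of the 10 genes in the sham cells of this gate, and 16.7% in those of day 7. Both splits therefore rest on few cells, and their intervals do not cover the spread between cells.

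In immature neutrophils 3 of 29 sham, 20 of 125 day 3, 0 of 19 day 7 and 11 of 29 day 14 cells were cycling, and cycling sham cells stood at 781 CPM, against 1603 CPM in non-cycling ones. On day 14 the cycling cells were at 0.934 of sham (0.715 to 1.23) and the non-cycling ones at 0.821 (0.716 to 0.941), against 0.665 without the split. Weighted by state as in sham, the log2 ratio of immature neutrophils on day 14 was -0.27, against -0.59 unweighted. On day 7, when none was cycling, the non-cycling cells were at 0.750 of sham (0.655 to 0.857).

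Mononuclear phagocytes hold cells led by the macrophage list and cells led by the monocyte or dendritic cell list. The macrophage list cells stood at 18375, 7780, 20832 and 21912 CPM in the 4 pools (8, 21, 8 and 4 cells), with day 7 at 1.13 of sham (1.05 to 1.23) and day 3 at 0.423 (0.394 to 0.455). The monocyte or dendritic list cells stood at 4873, 7247, 8116 and 5131 CPM (14, 13, 5 and 5 cells), with day 7 at 1.67 (1.52 to 1.82). Both ratios were above 1 and under the 2.08 of the whole lineage. Weighted by state as in sham, the log2 ratio of day 7 to sham was 0.54 in mononuclear phagocytes, -0.34 in progenitors or basophils and -0.36 in B cell precursors, against 1.05, -1.16 and -0.91 unweighted. In these 3 lineages the directions stayed and the sizes were smaller. Mature neutrophils, where 0 of 55 day 7 and 1 of 51 sham cells were cycling, were not split.

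**Figure D5:**
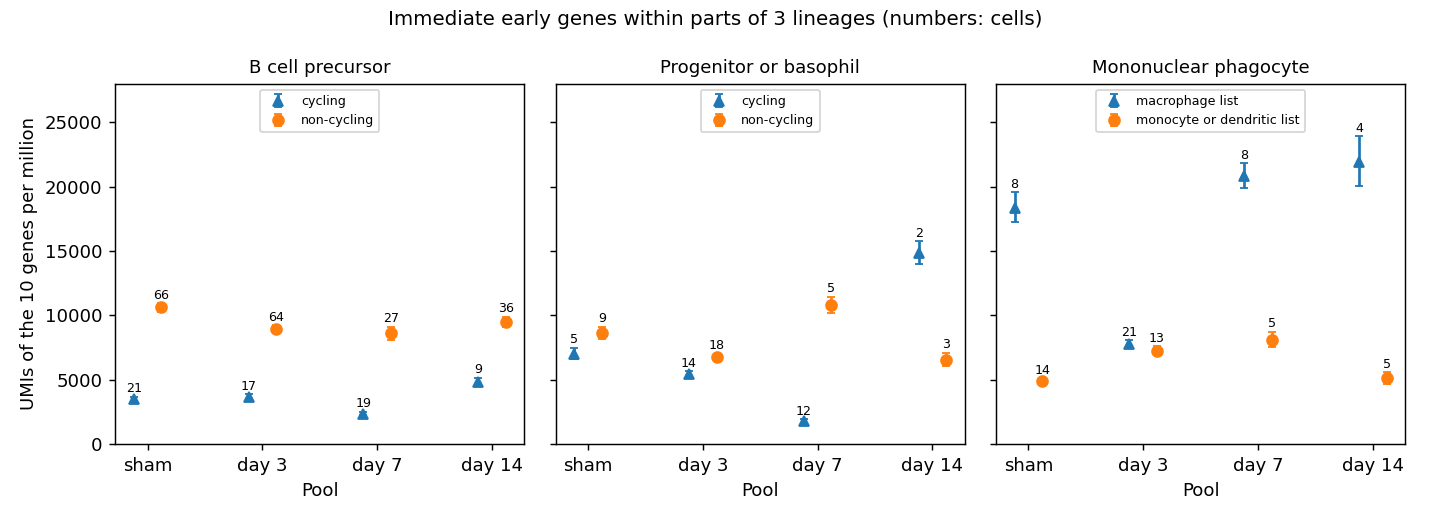
UMIs of the 10 genes per 1000000 in parts of 3 lineages and in each pool, with 95% Poisson intervals and cell numbers. Cycling B cell precursors stand below non-cycling ones in every pool (3499 and 10630 CPM in sham), and macrophage list cells of day 7 and sham stand at 20832 and 18375 CPM.

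Day 3 stood above sham in 3 lineages, neutrophils among them, and below it in 4, with intervals that exclude 1. The summed ratio of day 3 to sham was 1.20 in mature neutrophils and 1.28 in immature neutrophils, and in the other 6 lineages it lay between 0.776 and 1.09. With cells thinned to 2000 UMIs, the log2 ratio of immature neutrophils turned to -0.15 and that of mononuclear phagocytes to -0.18, against 0.36 and 0.13 without thinning. Over all lineages 6 of 76 pairs were lower and 10 higher, where 12.3% and 14.5% of 36733 pairs over all genes were. The balance of this count depended on the processing, with 21 lower and 5 higher pairs in thinned cells and 18 lower and 9 higher with cells weighted alike. It was 13 lower and 12 higher under the stricter gate and 11 of each with at most 5% mitochondrial UMIs. The number of pairs measured can differ from 76 under these settings. The share over all genes was not computed for them. In mature neutrophils Fosb (192 CPM on day 3 and 96.6 CPM in sham) and Zfp36 (831 CPM on day 3 and 505 CPM in sham) were the 2 genes called higher, where 16% of all genes were, at ratios of 1.98 (1.31 to 3.1) and 1.65 (1.37 to 1.99). Jun in immature neutrophils stood at 75.3 CPM on day 3 against 17.3 CPM in sham, on 162 and 9 UMIs, a ratio of 4.35 (2.24 to 9.68). Against day 3 in place of sham, day 7 was at 0.444 in mature neutrophils (0.422 to 0.467), 1.90 in mononuclear phagocytes (1.81 to 1.99) and 1.11 in T cells (1.02 to 1.20). By pairs, 41 of 76 were lower and 9 higher on day 7 than on day 3, where 18.5% and 11.5% of all were. The division between mature neutrophils and mononuclear phagocytes was thus also found against the day 3 pool.

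Other genes of the same response were read from 6 lists. On day 7 against sham, 19 of 35 pairs of the other EGR, NR4A and KLF genes were lower and 6 higher, and of the feedback phosphatases and inhibitors 36 of 66 were lower and 12 higher. Of the BTG, ZFP36 and IER relatives 32 of 75 were lower and 10 higher, and of heat shock genes 24 of 61 lower and 3 higher. Of the other AP-1 and leucine zipper genes 6 of 31 were lower and 8 higher, and of upstream kinases and serum response factors 11 of 55 lower and 7 higher. Over all genes 17.6% of pairs were lower and 13.8% higher. The median log2 ratio of the lists, as the median over lineages, was -0.62 for the EGR, NR4A and KLF genes, -0.80 for the feedback genes, -0.36 for the BTG, ZFP36 and IER relatives, -0.46 for heat shock, -0.24 for other AP-1 genes and -0.01 for the kinases.

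In mononuclear phagocytes several genes of the feedback list were higher on day 7, when the sum of the 10 genes was higher too. Gadd45b, a stress sensor, stood at 387 CPM on day 7 against 27.9 CPM in sham, a ratio of 13.9 (7.10 to 30.2). Ppp1r15a, which restores translation after stress, was at 7.11 (4.38 to 12) and Nfkbiz, an NF-kappa B cofactor, at 6.15 (3.98 to 9.78). Of the BTG, ZFP36 and IER relatives, Ier3 was at 5.51 (3.98 to 7.75). The receptor genes Nr4a1 and Nr4a2 ran the other way there, at 0.236 (0.122 to 0.421) and 0.145 (0.0287 to 0.454). In progenitors or basophils Ier3 stood at 115 CPM on day 7 against 1058 CPM in sham (0.109, 0.0813 to 0.144), and the NF-kappa B inhibitor Nfkbia at 264 CPM against 1440 CPM (0.184, 0.150 to 0.223).

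The heat shock list as a whole differed between lineages on day 7. In B cell precursors 1 of 10 measured genes was lower (12.7% of all genes) and in progenitors or basophils 2 of 9 (20.1%), both near the share of all genes. In NK cells 5 of 7 were lower (17.4%), in B cells 5 of 6 (18%) and in immature neutrophils 3 of 6 (21.2%). Mature neutrophils had 2 of 6 lower (13.5%) and T cells 2 of 8 (12.7%). In mononuclear phagocytes 4 of 9 were lower and 3 higher, where 26.1% and 16.2% of all genes were. One gene of this list, Hspa8, named for its distance from sham, encodes a constitutive chaperone of the HSP70 family. It stood below sham on day 7 in each of the 8 lineages, though by less than 1.5-fold in progenitors or basophils and B cell precursors. It stood at 1662 CPM on day 7 against 2838 CPM in sham in mononuclear phagocytes (0.586, 0.513 to 0.667), at 1249 against 1894 CPM in T cells (0.660, 0.560 to 0.776), and its other 6 ratios lay between 0.297 and 0.786. On day 14 its 4 ratios lay between 0.510 and 0.686. A level below sham was not confined to these days. On day 3 Hspa8 was at 0.590 (0.513 to 0.681) in immature and 0.706 (0.576 to 0.868) in mature neutrophils. It was then at 0.767 (0.667 to 0.883) in NK cells, 0.854 (0.794 to 0.918) in B cell precursors and 0.891 (0.806 to 0.988) in progenitors or basophils. The stress-inducible Hspa1a was higher in mononuclear phagocytes on day 7, at 99.4 CPM against 16.7 CPM (5.94, 2.26 to 18.3), on 18 and 6 UMIs. Hspa8 thus stood below sham on day 7 in mononuclear phagocytes and T cells too, which the summed level of the 10 genes did not.

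Over the 28 lineage and pool sums with at least 10 cells, the genes most like the mean of the 10 on a log2 scale, among 1578 genes with enough UMIs, were Dusp1 (Pearson r 0.79), Pim1 (0.78), Ccnl1 (0.75), Vmp1 (0.72) and Gm2a (0.72). Dusp1 encodes a phosphatase that inactivates MAP kinases, Pim1 a serine/threonine kinase and Ccnl1 a cyclin linked to splicing. Among the 10 themselves, Zfp36 was most like the mean of the other 9 (0.90), followed by Egr1 (0.83) and Fosb (0.79). Jund was least like it (0.35), with Jun at 0.49 and Fos at 0.52. The 28 sums share 4 pools and 1 library, so these correlations are descriptions.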

How the data were processed

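UMI counts per gene and barcode were deposited by the authors as whole numbers, written by Cell Ranger 3.1.0 per the file headers, against mm10 per the submitters' processing notes. No source used here says how cells were called, and 1 of the 2 deposited matrices adds the counts of 4 hashtags to the same gene counts. The labels name both v2 and v3 of the 3' kit.

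A barcode entered a pool if its top hashtag had at least 10 UMIs and 80% of its hashtag UMIs (1359 of 1556 barcodes), and passed with at least 200 genes and at most 10% mitochondrial UMIs (1285). This removes doublets between pools, not those within a pool, and no doublet caller was run. For each cell the marker levels, scaled to their 99th percentile, were averaged per list. The leading list needed 3 detected markers and a lead of 0.05 over lists of other lineages, which placed 1139 cells in 8 lineages, 28 in other gates and 118 in none. These thresholds were set on the data.

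UMIs were summed per lineage and pool and divided by all UMIs (CPM). Ratios carry exact conditional Poisson 95% intervals, and a count of 0 was set to 3 UMIs. Cells were called cycling with at least 2 of 5 cycle genes detected. The cells of the 8 lineages held 1705920 to 5955166 UMIs per pool. The ratio script was tested on simulated data. The 10 genes and the lists were chosen with earlier results of these data known. From each list up to 4 genes per comparison were eligible to be named, those whose interval bound nearest to 1 lies farthest from 1, and the text names some of these. Alternatives changed the hashtag rule, cell filter, gate, scaling, summing, thresholds and control pool. The scripts used scipy 1.17.1, pandas 2.3.3, numpy 2.4.6, matplotlib 3.10.9 and Python 3.11.15. Promoters are those of RefSeq, and the gene coordinates those of GENCODE.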

Additional observations from a re-analysis of the deposited data

Results flagged for a closer look

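For 9 of the 10 genes the day 7 pool stood above sham in mononuclear phagocytes and below it in another lineage, each with an interval that excludes 1. The genes were listed for their lower level in these data, so a lineage below sham is part of that choice. The lineage named for each gene is the one with its lowest ratio. How many of all genes would do the same was not computed. The differences between lineages were not tested, since there is 1 pool per condition. In mononuclear phagocytes the log2 ratio of day 7 to sham was 2.27 for Egr1 (lower in B cells), 1.91 for Jun (lower in NK cells), 1.34 for Ier2 (lower in B cell precursors) and 1.21 for Fosb (lower in immature neutrophils). It was 1.12 for Zfp36 (lower in NK cells), 1.12 for Btg2 (lower in B cells), 1.00 for Junb (lower in mature neutrophils), 0.94 for Jund (lower in progenitors or basophils) and 0.70 for Atf3 (lower in mature neutrophils). On 13 day 7 and 22 sham mononuclear phagocytes these ratios rest on few cells. Of these, 8 on day 7 and 8 in sham were led by the macrophage list, whose cells held more of the 10 genes in both pools. Within macrophage list cells the summed genes were at 1.13 of sham on day 7, and within monocyte or dendritic list cells at 1.67.

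On day 3 against sham, immature neutrophils and T cells went opposite ways for Fos, with a log2 ratio of 0.61 in immature neutrophils, and for Jun, with 2.12 in immature neutrophils, both below sham in T cells. These differences were not tested either.

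The 92 barcodes that passed the cell filter without a single hashtag belong to no pool. Over the level of the sham cells of the 8 lineages, they stood at 1.34 for Jun (1.22 to 1.47), 1.21 for Zfp36 (1.07 to 1.37), 1.19 for Btg2 (1.10 to 1.30) and 1.10 for Fos (1.01 to 1.19), with lineages not matched. They stood below sham for Fosb, at 0.546 (0.414 to 0.710), and for Junb, at 0.879 (0.826 to 0.936). The intervals of Jund, Egr1, Atf3 and Ier2 included 1.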

How the results depend on the processing

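The mean over lineages of the log2 ratio of the summed genes was -0.04 on day 3, -0.44 on day 7 and -0.35 on day 14, with ranges of -0.22 to 0.04, -0.57 to -0.35 and -0.47 to -0.28 over the alternatives. The sign held on days 7 and 14 and turned on day 3 (0.037 with each gene's top cell left out). In single lineages it turned on day 3 for mononuclear phagocytes (-0.0062 with cells weighted alike, -0.18 thinned) and immature neutrophils (-0.15 thinned), and for NK cells (0.039 with cells over 3 times the median UMIs left out, against -0.0996). Over all alternatives the day 7 log2 ratio lay between 0.54 and 1.11 in mononuclear phagocytes, -0.11 and 0.15 in T cells, -1.71 and -0.34 in progenitors or basophils and -1.32 and -0.36 in B cell precursors. For immature neutrophils it was -0.0208 under the stricter hashtag rule. For B cell precursors on day 14 it lay between -0.13 and 0.20.

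With at most 5% mitochondrial UMIs, 11 day 3 pairs were lower against 6, and the means were -0.10 (day 3) and -0.56 (day 7). The stricter gate gave 13 lower day 3 pairs and means of -0.13, -0.54 and -0.44 on days 3, 7 and 14. Cells weighted alike gave 18 lower day 3 pairs and means of -0.14 (day 3) and -0.45 (day 14). Thinning gave 21 lower and 5 higher day 3 pairs and means of -0.22, -0.57 and -0.47. A fold of 2 left 0 lower and 6 higher day 3 pairs and 6 higher day 7 pairs. Against day 3, 23 of 38 day 14 pairs were lower, where 14.6% of 18298 pairs over all genes were, and the mean was -0.44. For the other settings the number of pairs measured can differ from the main count, and the share over all genes was not computed. The 1 higher day 14 pair became 0 under the stricter hashtag rule, no cell filter, trimmed scaling, equal weights, top cells left out, thinning, a minimum of 50 UMIs, a fold of 2 and state weights. Of the alternatives chosen after seeing the data, state weights gave means of -0.35 (day 7) and -0.28 (day 14), cells over 3 times the median UMIs left out gave -0.0018 (day 3), and Junb left out gave -0.50 (day 7). The causes were not tested. No paired analysis was possible because each condition is 1 pool. Depth limits the lineages with 10 to 21 cells, where 1 cell held up to 47.9% of the UMIs of a gene with at least 20 UMIs in that pool, and 100% of rarer ones such as Fosb in day 7 immature neutrophils.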

Other observations

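On day 14, 4 lineages held fewer than 10 cells and entered no comparison above. The 10 genes stood at 1.19 of sham in 9 mononuclear phagocytes, 1.31 in 5 progenitors or basophils, 0.969 in 7 B cells and 0.752 in 6 NK cells. A single cell held 43.8% of the UMIs of the 10 genes in the progenitors or basophils of day 14.

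Klf2, which keeps T cells quiescent, was low in T cells on both later days, at 288 CPM on day 7 and 147 CPM on day 14 against 611 CPM in sham, ratios of 0.471 (0.340 to 0.649) and 0.241 (0.136 to 0.404). Nr4a2, an orphan nuclear receptor gene, ran the other way in T cells, with 35 UMIs on day 7 and 19 on day 14 against 2 in sham, ratios of 14.8 (3.79 to 127) and 15.0 (3.61 to 132). In mononuclear phagocytes on day 7 Klf2 was instead at 2.98 of sham (2.28 to 3.92).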
